A study of Mus with 4 samples.

Results

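Pericytes, the mural cells that sit on capillaries, were followed in dissociated mouse dorsal root ganglia (DRGs) as the cell barcodes selected on the UMI counts of 7 genes. They held at least 3 unique molecular identifiers (UMIs, each 1 counted transcript) of Rgs5 and at least 1 of Notch3. They also held no UMI of the smooth muscle myosin gene Myh11, fewer than 3 of the endothelial receptor gene Flt1 and fewer than 20 of the neuronal genes Snap25, Uchl1 and Tubb3 together. Of 37451 barcodes in 4 libraries, 35113 had more than 500 genes and under 20% mitochondrial UMIs, and 272 of those were pericytes. There were 79 and 20 in replicates 1 and 2 of the control (CON) group and 75 and 98 in replicates 1 and 2 of the chronic constriction injury (CCI) group. Wherever 4 values follow each other below, they stand in that order.

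The L4 and L5 ganglia of the left side hold the cell bodies of neurons that send axons into the sciatic nerve, around which loose ligatures are tied in CCI, a model of neuropathic pain. CON libraries came from naïve wildtype mice and CCI libraries from wildtype mice, according to the methods 3 d after the ligation, so no sham-operated group entered the comparison. By the methods all mice were C57BL/6J males, 8 weeks old when the ganglia were dissociated, and neither labels nor methods state how many mice went into each library. The labels give neurons as the cell type, but the barcodes held vascular, glial and immune cells as well, and labels and methods name different enzymes for the dissociation.

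Pericytes share a basement membrane with the endothelial cells of capillaries and postcapillary venules, and endothelial PDGF-B acting on the receptor encoded by Pdgfrb recruits them there. They lack most of the contractile apparatus of arteriolar smooth muscle, and many carry an ATP-sensitive potassium channel built from the pore subunit Kcnj8 and the regulatory subunit Abcc9. In ganglia, whose capillaries are more permeable than those of the brain, they surround a dense vascular bed near the neuronal cell bodies.

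Pericytes made up 0.735% (95% exact binomial interval 0.583 to 0.916), 0.765% (0.468 to 1.18), 0.672% (0.529 to 0.842) and 0.924% (0.751 to 1.13) of kept barcodes. The 4 intervals overlapped, and they cover counting error only. With 2 libraries against 2, an exact permutation test cannot go below p = 0.333, so the shares were not tested. Per library the pericytes together held 160385, 92684, 203858 and 383625 UMIs, 840552 in all, and these sums are the unit of every comparison below.

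Depth differed between the libraries. A pericyte held a median of 1935, 4493, 2612 and 3099 UMIs, and a kept barcode of any kind 2508, 8352, 3675 and 4552. CON replicate 2 thus had the fewest and most deeply counted pericytes. Between 12 and 31 barcode sequences were shared by any 2 libraries. Of the 272 pericytes, 24 also held UMIs of another cell type: 14 of glial genes (at least 10), 5 of the fibroblast genes Dcn and Lum (at least 5) and 5 of the macrophage genes C1qa and C1qb (at least 3), while none held 2 or more of the endothelial genes Cldn5 and Pecam1. By library they numbered 2, 1, 4 and 17, and they held 4.60%, 12.9%, 9.27% and 37.3% of the pericyte UMIs. In CCI replicate 2 these 17 had a median of 9148 UMIs against 3099 for the library's pericytes as a whole. Several values are given below with and without them.

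**Figure D1:**
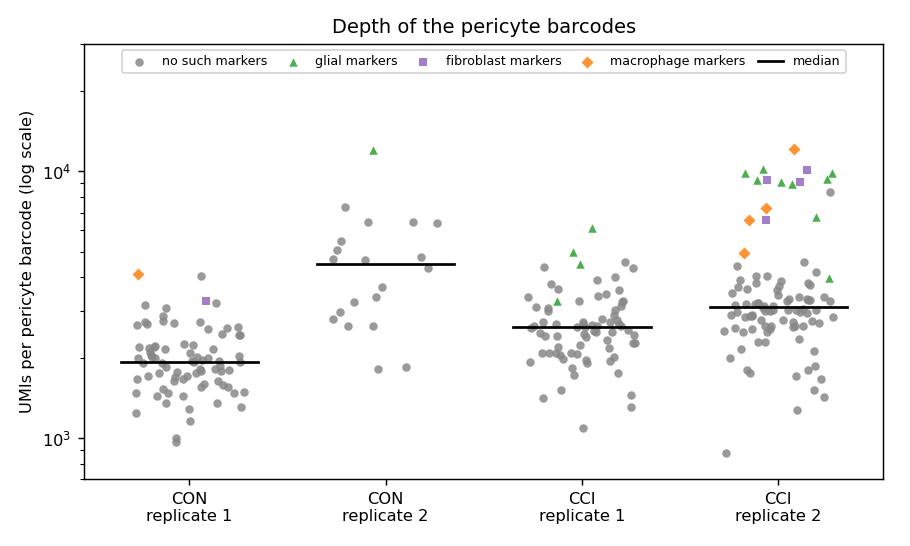
UMIs per pericyte barcode (y axis, log scale) in each of the 4 libraries (x axis), 1 point per barcode, with the median as a bar and barcodes that also hold glial, fibroblast or macrophage markers drawn as coloured symbols. CON replicate 2 has 20 pericytes with the highest median, and most coloured symbols lie at the top of CCI replicate 2.

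The rule's own genes are given as a description. A pericyte held a median of 13 Rgs5 UMIs (range 3 to 135) and 2 Notch3 UMIs (1 to 10). Rgs5, at chr1:169655501-169695813 of GRCm38.p6 (the RefSeq gene span), encodes a regulator of G protein signalling, and its summed level was 5437, 7272, 6249 and 4979 CPM, the UMIs of the gene per 1000000 UMIs of all pericytes in that library. Notch3, at chr17:32120820-32166896, encodes the Notch receptor of mural cells, and its level was 823, 809, 932 and 594 CPM. At the edge of the rule, 10 pericytes had exactly 3 Rgs5 UMIs, and 13 barcodes that met every other condition had 2. The Notch3 condition lay in a denser region, since 102 pericytes held exactly 1 UMI and 120 barcodes that met all other conditions held none, 55 of them in CON replicate 1 and 0 in CON replicate 2. A further 157 barcodes were left out by 1 Myh11 UMI, and 7 by a neuronal sum between 20 and 29.

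Several pericyte markers that the rule did not use were detected in most of these barcodes, and others in fewer. Ndufa4l2, a hypoxia-responsive mitochondrial subunit gene of mural cells at chr10:127509274-127517154, stood at 811, 949, 1285 and 719 CPM and was detected in 232 of 272 pericytes (85.3%), against 4 of 1483 endothelial barcodes (0.270%). Vtn, the vitronectin gene at chr11:78499120-78502325, stood at 1116, 1909.7, 1702 and 1457 CPM and was detected in 241 pericytes (88.6%) and 6 endothelial barcodes. The endothelial barcodes were the deeper ones, with medians of 5608, 14541, 7683 and 9276 UMIs, so depth does not favour the pericytes in these shares. Pdgfrb was detected in 189 pericytes (69.5%) and stood at 511, 777, 417 and 430.1 CPM. Abcc9 was detected in 126 pericytes and Cspg4 in 75. Of 8 such markers, Kcnj8, Abcc9, Pdgfrb, Vtn, Ndufa4l2, Higd1b, Cspg4 and Cox4i2, 254 of the 272 pericytes held 3 or more. Of the 28 genes on the pericyte marker list, 2 had no UMI in any pericyte.

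The potassium channel subunits separated pericytes from smooth muscle as well. The smooth muscle barcodes used here (634, with at least 3 Myh11 UMIs, fewer than 3 of Flt1 and fewer than 20 of the neuronal genes) had medians of 2628, 6880, 4093 and 4536 UMIs and so were deeper than the pericytes. Kcnj8 and Abcc9 are neighbours, at chr6:142564837-142571614 and chr6:142587862-142702766, 16248 bases apart. Kcnj8 was detected in 183 pericytes (67.3%) and 55 smooth muscle barcodes (8.68%), and Abcc9 in 126 pericytes (46.3%). At least 1 of the pair was seen in 216 pericytes and both in 93. In CPM, pericytes held 405, 593, 481 and 587 of Kcnj8 and 181, 518, 231 and 261 of Abcc9, with the highest level of Abcc9 in CON replicate 2. Acta2, the smooth muscle actin gene, was absent from 231 of the 272 pericytes and present in 606 smooth muscle barcodes (95.6%), with 218, 0, 461 and 133 CPM in pericytes and 7504, 9472, 10593 and 8202 CPM in smooth muscle. Because the rules exclude Myh11 from pericytes and demand it in smooth muscle, this Acta2 contrast is fixed in part by the choice of barcodes.

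**Figure D2:**
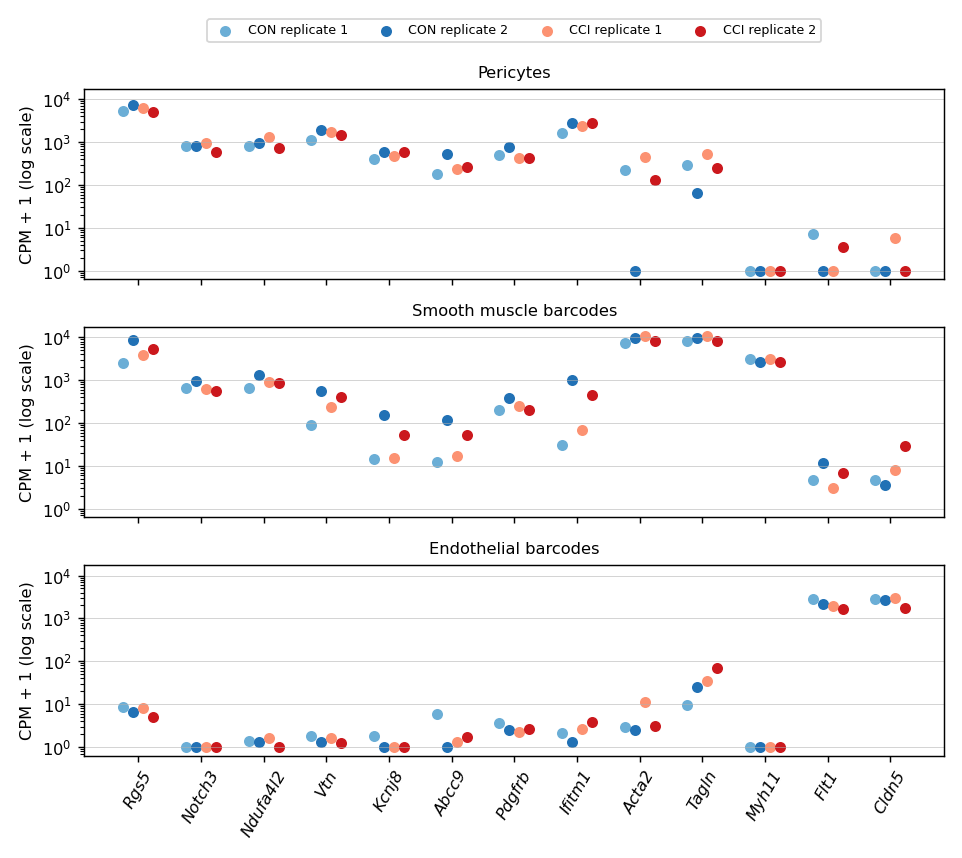
Summed level (CPM + 1, log scale) of marker genes of pericytes, smooth muscle and endothelium in the pericyte, smooth muscle and endothelial barcodes of each library, 1 point per library. Kcnj8 stands between 405 and 593 CPM in pericytes, above all 4 smooth muscle values.

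Transporter genes known from brain pericytes were in part present and in part without a UMI. Slc6a20a, Slc6a12, Slc6a13 and Slc22a8 and the transporter gene Atp13a5 had 0 UMIs in all 272 pericytes, which allows up to 3.57 CPM over the 4 libraries together. Slc38a11, an amino acid transporter gene, stood at 137, 129, 93.2 and 39.1 CPM, the folate carrier gene Slc19a1 at 49.9, 32.4, 78.5 and 20.9 CPM and the manganese transporter gene Slc30a10 at 18.7, 32.4, 14.7 and 5.21 CPM. Slc12a2, a sodium, potassium and chloride cotransporter gene, stood at 168, 604, 240.4 and 438 CPM. Slc38a2, an amino acid carrier gene, stood at 449, 647, 304 and 227 CPM and the sodium pump subunit gene Atp1b2 at 193, 248, 186 and 172 CPM.

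Pericytes held receptors of several vasoactive ligands. The angiotensin receptor gene Agtr1a stood at 149.6, 367, 240.4 and 216 CPM and was detected in 120 pericytes, and the adrenergic receptor gene Adra2a stood at 362, 324, 348 and 284 CPM and was detected in 143 (52.6%). Ednra, an endothelin receptor gene, stood at 143, 248, 113 and 117 CPM, and P2ry14, a receptor gene for UDP-sugars, at 162, 205, 216 and 224 CPM. Both subunits of soluble guanylate cyclase, the nitric oxide receptor, were present, with 424, 572, 260.0 and 261 CPM of Gucy1a1 and 387, 453, 392 and 368 CPM of Gucy1b1. Adra1a, P2rx1 and Ptger4 had no UMI in any pericyte.

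Among the most abundant transcripts of pericytes were Sparc, a matrix-binding glycoprotein gene (4128, 5352, 2865 and 4864 CPM), Igfbp7, an insulin-like growth factor binding protein gene (2962, 3496, 4409.9 and 4089.9 CPM), and the interferon-inducible Ifitm3 (1983, 6085, 5043 and 3975 CPM). Heat shock and immediate early transcripts were also among them. Hspa1a, an inducible HSP70 gene, stood at 5212, 11491, 7147 and 1165 CPM and Fos at 3691, 5643, 2561 and 2495 CPM. For Hspa1a the lowest library was CCI replicate 2 and the highest CON replicate 2.

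Transcripts of other cells were present in the sums. The neuronal markers together reached 21367, 1532, 15555 and 7291 CPM in pericytes, against 15609, 1412, 10235 and 5501 CPM in smooth muscle and 7340, 670.1, 5025 and 2803 CPM in endothelial barcodes, so the libraries stood in the same order in all 3 classes. The rules of all 3 classes cap 3 of these 16 markers. Satellite glial markers reached 3012, 8470, 3311 and 23116 CPM and fibroblast markers 860.4, 615.0, 613.2 and 5153 CPM, both highest in CCI replicate 2. Without the 24 pericytes that held other cells' markers, 17 of them in that library, the sums were 2542, 1165, 1806 and 4910 CPM for satellite glia and 339.8, 545, 519 and 416 CPM for fibroblasts. Endothelial markers stayed at 368 to 507 CPM, with 2 of 14 genes at 0.

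Against smooth muscle, the other mural cell, pericytes held less contractile and more interferon-response and chemokine transcript. edgeR's quasi-likelihood test with the library as a block and Benjamini-Hochberg adjustment called 806 of 5804 genes (13.9%) at an adjusted p under 0.05, 377 higher in pericytes (6.5%) and 429 lower (7.39%). The pericyte rule demands Rgs5 and Notch3 and excludes Myh11, while the smooth muscle rule demands Myh11, so the direction of genes that go with Myh11 is fixed by the choice of barcodes. Those genes are given as a description, and the rule's own genes were left out of all tests. The shares of 6.5% higher and 7.39% lower are the background for the list counts that follow.

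Of 22 tested pericyte markers, 12 were higher in pericytes and 4 lower (median log2 fold change 0.70, against 0.04 over all genes). The channel genes led, with Kcnj8 3.59 ± 0.34 (SE; adjusted p = 4.99e-06 by edgeR's quasi-likelihood test) and Abcc9 2.80 ± 0.25 (adjusted p = 2.98e-06). Smooth muscle held 13.2, 152, 14.2 and 52.2 CPM of Kcnj8 and 11.3, 119.9, 16.2 and 51.0 CPM of Abcc9, and its 2 higher values of each fell in CON replicate 2 and CCI replicate 2. Vtn was higher by 2.47 ± 0.24 and Steap4, a metalloreductase gene, by 2.21 ± 0.19 on the log2 scale. Ndufa4l2, at 676, 1332, 898 and 867 CPM in smooth muscle, did not pass the test (-0.00 ± 0.17, edgeR adjusted p = 0.996). Nrip2, Cspg4, Gucy1a1 and Mcam were the 4 lower markers, with Nrip2, a nuclear receptor interacting protein gene, at 118, 75.5, 191 and 99.1 CPM in pericytes and 478, 1042, 744 and 710.5 CPM in smooth muscle (-2.55 ± 0.23).

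Of 22 tested contractile genes, 19 were lower in pericytes and none higher (median -2.47), a direction the rule fixes in part. Tagln, the transgelin gene, stood at 287, 64.7, 515 and 253 CPM in pericytes and 8247, 9848, 10954 and 8126 CPM in smooth muscle (-5.12 ± 0.31), and Tpm2, a tropomyosin gene, at 486, 464, 716 and 414 and 2905, 3814, 4758 and 3831 CPM (-2.91 ± 0.17). Both stood far below every smooth muscle library in all 4 pericyte sums. Contractile genes that are common to many cells differed less, such as the myosin light chain gene Myl6 (-1.84 ± 0.17) and the caldesmon gene Cald1 (-0.82 ± 0.16).

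Several genes of smooth muscle had no UMI in any pericyte. Asb2 was at least 36.3-fold lower and Tcap, a sarcomere titin cap gene, at least 26.8-fold lower, both against a floor of 3 UMIs over all pericytes. The bound was at least 25.7-fold for Xirp1, at least 24.3-fold for Timp4, at least 22.8-fold for Susd5, at least 15.8-fold for the neurotrophin gene Ntf3, at least 15.6-fold for Myocd, which encodes the smooth muscle coactivator myocardin, and at least 13.3-fold and 11.8-fold for Cacna1g and Rergl. Pln, the phospholamban gene, was seen with 6 UMIs in pericytes (24.9, 0, 0 and 5.21 CPM) and stood at 807, 565, 583 and 473 CPM in smooth muscle.

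Vessel tone receptors and channels were divided, with 10 of 29 higher in pericytes and 7 lower (median -0.11). Adra2a stood at 11.3, 95.9, 14.2 and 39.4 CPM in smooth muscle, below every pericyte sum (3.31 ± 0.34, edgeR adjusted p = 9.00e-06). Rgs16, a regulator of G protein signalling, was higher as well (1.90 ± 0.22), as were Agtr1a, P2ry14, Rgs2, Ednrb, Trpc6 and P2rx4. Ramp1, a subunit of the receptor for the sensory neuropeptide CGRP, was seen with 3 UMIs in pericytes and stood at 176, 152, 183 and 139 CPM in smooth muscle, 45.9-fold higher there (counting interval 15.6 to 223). The other lower members were Pde3a, Cacna1h, Kcnmb1, Gucy1a1, Npy1r and Prkg1. Rgs4, at 642, 561, 466 and 417 CPM in pericytes, did not pass (-0.30 ± 0.16, edgeR adjusted p = 0.292).

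Signalling between endothelium and mural cells leaned to smooth muscle, with 3 of 27 genes higher in pericytes and 12 lower (median -0.69). Pdgfrb was higher in pericytes, 534 ± 167 CPM (SD, n = 4) against 257 ± 86.3 CPM (1.04 ± 0.16), as were the N-cadherin gene Cdh2 (2.16 ± 0.19) and the Notch target Heyl. Ligands and targets of the TGF-beta and Notch pathways were among the lower genes. Tgfb2, a ligand gene, stood at 12.5, 10.8, 19.6 and 5.21 CPM in pericytes and 90.7, 66.6, 66.8 and 88.1 CPM in smooth muscle (-2.86 ± 0.38), and Smad7, an inhibitor of the pathway, at 24.9, 43.2, 39.2 and 52.1 and 166, 71.9, 249 and 189 CPM (-2.13 ± 0.26). Hes1, a Notch target, was lower by less (-0.78 ± 0.19), and the Notch ligand gene Jag1 was lower too.

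Matrix genes were divided, with 19 of 43 higher in pericytes and 9 lower (median 0.68). The 9 collagen genes Col6a1, Col6a2, Col6a3, Col3a1, Col5a1, Col5a2, Col5a3, Col8a1 and Col4a2 were all among the higher, for example Col6a1 at 243, 291, 177 and 185 CPM against 34.0, 82.6, 32.4 and 58.0 CPM (2.12 ± 0.21). Sparc was higher by 0.78 ± 0.17. Sparcl1, its homologue, went the other way, at 368, 442, 476 and 644 CPM in pericytes and 2918, 2123, 2778 and 2328 CPM in smooth muscle (-2.41 ± 0.21). The laminin chain gene Lama5 stood at 12.5, 10.8, 4.91 and 15.6 CPM in pericytes and 128, 133, 144 and 140.2 CPM in smooth muscle (-3.53 ± 0.32), and Lamb2, Hspg2, Lox, Emilin1 and Col4a5 were lower as well, whereas Lama2, Lamb1 and Lamc3 were higher. Of 14 integrin and adhesion genes, 1 was higher and 5 were lower, among them Cdh6 (6.24, 10.8, 0 and 28.7 CPM against 149, 98.6, 102 and 92.7 CPM) and Itga8 (0, 0, 9.81 and 18.2 CPM against 104, 93.2, 73.9 and 54.5 CPM).

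Interferon-response and MHC class I genes were higher in pericytes in 21 of 29 cases and lower in none (median 1.02). Ifitm1 stood at 1677, 2838, 2320.2 and 2737 CPM against 30.2, 991, 69.9 and 447 CPM (3.51 ± 0.50), and was detected in 249 pericytes (91.5%) and 99 smooth muscle barcodes. Iigp1, an interferon-inducible GTPase gene, stood at 137, 820.0, 319 and 1217 CPM against 3.78, 115, 40.5 and 217 CPM (2.89 ± 0.22). H2-D1, an MHC class I heavy chain gene, was higher by 1.29 ± 0.15, Ifitm3 by 1.65 ± 0.19 and Ifitm2 by 1.08 ± 0.15 on the log2 scale. The counts were 13 higher of 28 without CCI replicate 2, 17 of 27 without the 24 barcodes that held other cells' markers and 14 of 18 after thinning each barcode to 2000 UMIs, with none lower in each case.

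Chemokine and cytokine genes were higher in 7 of 15 cases and lower in 1 (median 1.09). Cxcl1, a neutrophil chemoattractant gene, stood at 717, 647, 780.0 and 2054 CPM against 113, 74.6, 135 and 548 CPM (2.46 ± 0.19), and Ccl11, the eotaxin gene, at 243, 129, 314 and 1379 CPM against 1.89, 53.3, 23.3 and 194 CPM (3.15 ± 0.36). The others were Ccl2, Ccl19, Cxcl10, Il6 and Il6st, the gp130 coreceptor gene (1.67 ± 0.18), and Ccrl2 was the lower one. Il6 stood at 74.8, 10.8, 63.8 and 1024 CPM in pericytes, and in CON replicate 2 it was lower than in smooth muscle. Immediate early genes were called in 4 of 26 cases, against 13.9% of all 5804 genes, with Myc higher (1.16 ± 0.22) and Nr4a2 (-2.64 ± 0.41), Klf2 (-1.92 ± 0.37) and Ccn2 lower. Klf2 stood at 418, 173, 63.8 and 433 CPM in pericytes and 2197, 159.8, 752 and 1114 CPM in smooth muscle, where CON replicate 2 was the lowest. Without that library 10 of these genes were lower in pericytes and 1 was higher.

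Other lists differed in their share of called genes, against 13.9% of all 5804 genes. Heat shock genes were higher in 3 of 22 cases and lower in none, namely Hspa1a (1.24 ± 0.20), Hspa1b and Dnajb1 (1.05 ± 0.27). Among hypoxia and glycolysis genes 2 of 25 were higher, including the glucose transporter gene Slc2a3 (1.26 ± 0.27), and 1 was lower, Epas1, the HIF-2 alpha gene (-0.52 ± 0.16). None of 28 cytosolic ribosome genes passed. Transport genes were higher in 5 of 13 cases and lower in 2, with Slc12a2 (1.24 ± 0.16) among the higher. Neuronal markers, which neither class should express, were higher in pericytes in 5 of 10 cases and in 0 of 11 without CCI replicate 2. Their part in the other differences was not tested.

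**Figure D3:**
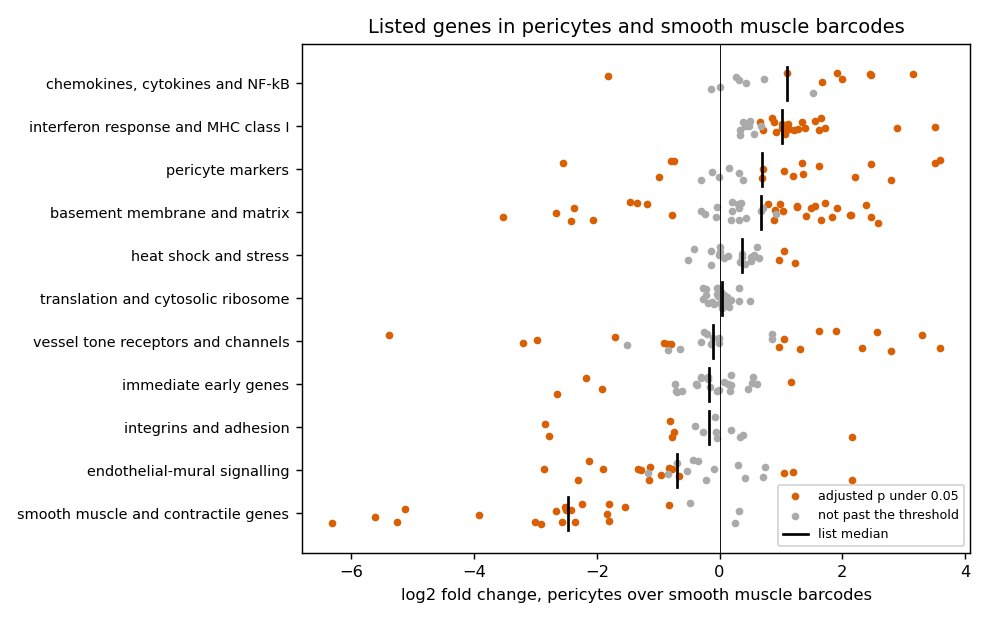
Log2 fold change of each tested list member in pericytes against smooth muscle (x axis), 1 point per gene and 1 row per list, with called genes coloured and a bar at the list median. The 19 called contractile genes lie left of 0, with a list median of -2.47, and the 21 called interferon-response genes lie right of it, with a list median of 1.02.

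Outside the lists, the genes with the greatest folds over smooth muscle included Olfml3, an olfactomedin-like matrix gene (68.6, 140.3, 123 and 239.8 CPM against 7.56, 13.3, 9.11 and 25.5 CPM; 3.36 ± 0.24), Pltp, the phospholipid transfer protein gene (256, 572, 466 and 451 CPM against 20.8, 136, 20.2 and 67.2 CPM; 3.11 ± 0.28), and Fhl2 (2.79 ± 0.29). Emcn, the endomucin gene of capillary and venous endothelium, was at 162, 162, 152 and 239.8 CPM in pericytes and 3.78, 45.3, 9.11 and 39.4 CPM in smooth muscle (3.05 ± 0.33). The part of endothelial transcripts in this difference was not tested.

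Against endothelial barcodes (1483, with at least 3 Flt1 UMIs and at least 1 of Pecam1, fewer than 3 of Rgs5, none of Notch3 or Myh11 and fewer than 20 of the neuronal genes), 3288 of 10028 genes were called (32.8%), 1546 higher in pericytes (15.4%) and 1742 lower (17.4%). With upper-quartile scaling, under which the median over all genes was 0.05 in place of -0.06, the balance turned to 1745 higher and 1538 lower. Here too the rules fix the direction of genes that go with Rgs5, Notch3 or Flt1. The shares of 15.4% higher and 17.4% lower are the background for the list counts that follow. All 23 tested pericyte markers were higher (median 7.56, against -0.06 over all genes), and all 12 tested endothelial markers lower (median -7.89).

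The pericyte markers were nearly absent from endothelium. Vtn was seen with 6 and Ndufa4l2 with 4 endothelial UMIs in all, at 0.770, 0.288, 0.633 and 0.232 and 0.385, 0.288, 0.633 and 0 CPM. Kcnj8, seen with 2 endothelial UMIs, was 3568-fold higher in pericytes (counting interval 982 to 29553). Aspn, the asporin gene, stood at 349, 464, 265 and 232 CPM and was 1299-fold higher (439 to 6345), and Kcne4, a potassium channel subunit gene, stood at 143, 302, 152 and 193 CPM and was 1256-fold higher (342 to 10466). Pdgfrb (8.02 ± 0.26), Higd1b (9.40 ± 0.34), Des, the desmin gene (9.49 ± 0.35), Cox4i2, an oxygen-responsive cytochrome oxidase subunit gene (6.57 ± 0.24), and Heyl (7.70 ± 0.42) were far higher as well.

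In the other direction, the 10 named genes with the greatest folds had no UMI in any pericyte. Cyyr1 was at least 179-fold lower, the endothelial phosphatase gene Ptprb at least 137-fold, Mmrn2 at least 125-fold and Gpihbp1, which anchors lipoprotein lipase on capillaries, at least 87.9-fold lower. The others were lower by at least 72.4-fold for Cd300lg, 68.4-fold for Gimap5, 67.6-fold for Fam167b, 64.9-fold for the transcription factor gene Sox18, 64.6-fold for Lrg1 and 57.8-fold for Depp1. Kdr, the VEGF receptor gene, was seen with 2 pericyte UMIs and was 191-fold higher in endothelium (52.8 to 1577).

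Vessel tone genes lay almost wholly on the pericyte side, with 25 of 29 higher and 1, the adrenomedullin and CGRP receptor gene Calcrl, lower (median 4.83). Gucy1b1 stood at 387, 453, 392 and 368 CPM in pericytes and 0.770, 1.15, 0.317 and 0.927 CPM in endothelium (8.66 ± 0.28), and Gucy1a1 differed by 7.65 ± 0.25. Rgs4, of which endothelium held 96.6, 6.63, 47.8 and 19.7 CPM, differed by 3.81 ± 0.38. Of 19 contractile genes, 13 were higher in pericytes, such as Tpm2 (8.12 ± 0.26) and Myl9 (6.51 ± 0.21), and 1 was lower, Tpm4.

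Signalling genes were divided, with 11 of 36 higher in pericytes and 19 lower, against 15.4% and 17.4% of all 10028 genes. The higher included Pdgfrb, Notch target genes (Heyl, Hey2 and Nrarp), Cdh2 (4.58 ± 0.30), Jag1, Pdgfa, and the angiopoietin genes Angpt1 and Angpt2. Lower in pericytes were Kdr, the angiopoietin receptor gene Tek, the PDGF-B gene Pdgfb, Notch1, Eng, Acvrl1, S1pr1, Efnb2 and Ephb4. Matrix genes were higher in 27 of 46 cases and lower in 7 (median 1.24), with the fibrillar collagen genes Col3a1 (617, 1208, 672 and 839 CPM; 6.25 ± 0.27) and Col1a2 (337, 399, 216 and 641 CPM; 3.97 ± 0.21) among the higher. Without the pericytes that held other cells' markers Col1a2 stood at 274, 384, 205 and 320.4 CPM. Integrin and adhesion genes were higher in 10 of 17 cases and lower in 5, including the laminin receptor subunit gene Itga6 (-3.66 ± 0.33).

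Interferon-response genes were lower than in endothelium in 28 of 34 cases and higher in 1, Ifitm1 (10.43 ± 0.31) (median -1.53). Rsad2 stood at 0, 21.6, 19.6 and 31.3 CPM in pericytes and 775, 1242, 816 and 713 CPM in endothelium (-5.50 ± 0.32), and the MHC class I gene H2-K1 at 168, 291, 383 and 399 and 1317, 2155, 1824 and 1713 CPM (-2.67 ± 0.18).

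Of 21 chemokine and cytokine genes, 10 were higher and 5 lower than in endothelium. Ccl11 (7.74 ± 0.42), Ccl19 (8.21 ± 0.49) and Cxcl1 (3.40 ± 0.21) were higher, as were Il6, Ccl2, Ccl7, Cxcl2, Cxcl10, Il1r1 and Ackr3. Cxcl12, a chemokine gene that endothelium held at 1567, 2362, 2012 and 917 CPM, was lower (-3.90 ± 0.20). STAT3 and acute phase genes were higher in 4 of 19 cases, including Steap4 (7.37 ± 0.26) and the transcription factor gene Cebpb (767, 1252, 849 and 3178 CPM; 3.69 ± 0.22), and lower in 8, including the cholesterol hydroxylase gene Ch25h (-5.87 ± 0.39). Immediate early genes were lower in 11 of 26 cases, among them Egr3 (-4.08 ± 0.36) and Ier3 (-2.39 ± 0.21), and higher in 4, such as Gadd45b (1.98 ± 0.18). For these 3 lists the shares over all 10028 genes were 15.4% higher and 17.4% lower.

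Barrier transporters were on the endothelial side. Abcb1a, the P-glycoprotein gene, was seen with 1 pericyte UMI and stood at 1019.9, 1195, 1040.0 and 811 CPM in endothelium, 843-fold higher there (151 to 33307), and Slco1a4, an organic anion transporter gene, with 2 pericyte UMIs was 381-fold higher there (105 to 3146). Of 18 transport genes in all, 9 were higher in pericytes and 6 lower, against 15.4% and 17.4% of all 10028 genes. Heat shock genes were higher in 11 of 23 cases, including the small heat shock gene Cryab (2.80 ± 0.18), and lower in 3. Cytosolic ribosome genes were lower in 27 of 28 cases (median -0.86), for example Rps14 (-1.33 ± 0.13) and Eef1a1 (-1.18 ± 0.12), and none was higher, against 26 lower and 1 higher with upper-quartile scaling. Pericytes were shallower than endothelial barcodes and had higher neuronal levels in CPM, with 10 of 12 neuronal markers higher. The part of either in these shifts was not tested.

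CCI against CON within pericytes gave no gene past the threshold. edgeR's quasi-likelihood test with Benjamini-Hochberg adjustment called 0 of 3479 genes (0.0%), and the smallest adjusted p was 1.00. At an unadjusted p under 0.05 there were 72 genes, 33 higher and 39 lower in CCI. DESeq2 called 4, among them Bc1, Apod and Gal. With counts simulated at these depths, 0% of 2-fold and 1% of 4-fold changes were found by edgeR, so changes of that size were not detectable here. All values for single genes below are therefore given as values, and no gene is said to have changed. The CCI and CON values of 960 genes did not overlap (27.6%), 424 with CCI higher (12.2%) and 536 with CCI lower (15.4%).

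The pericyte markers gave no called gene. Vtn differed by 0.07 ± 0.40 (log2, SE), Kcnj8 by 0.11 ± 0.40, Ndufa4l2 by 0.19 ± 0.42 and Pdgfrb by -0.59 ± 0.40, and their groups overlapped except for Pdgfrb. The highest library for Pdgfrb was CON replicate 2, and without it the difference was -0.13. Of 21 tested markers, 1 was higher in both CCI libraries than in both CON libraries and 3 were lower. Over all 3479 genes these shares were 12.2% and 15.4%.

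The vessel tone list had 7 of 20 genes lower in both CCI libraries and 1 higher (median -0.14, against -0.03 over all genes). For this list and the signalling list below, the shares over all 3479 genes were 15.4% lower and 12.2% higher. Npy1r, a neuropeptide Y receptor gene, stood at 312, 227, 83.4 and 93.8 CPM (-1.59 ± 0.40, unadjusted p = 0.00803 by edgeR). Gucy1a1 stood at 424, 572, 260.0 and 261 CPM (-0.92 ± 0.39) and Prkg1, the kinase gene downstream of cyclic GMP, at 112, 216, 78.5 and 41.7 CPM (-1.44 ± 0.56). All 3 were lower in both CCI libraries. In all other kept barcodes Prkg1 (78.1, 58.2, 52.1 and 40.8 CPM) and Gucy1a1 kept that order of groups. Npy1r (61.05, 44.3, 73.2 and 51.8 CPM) did not. Of 14 signalling genes, 4 were lower in both CCI libraries and none higher. Hes1 stood at 505, 1014, 216 and 196 CPM (-1.87 ± 0.48, unadjusted p = 0.00848 by edgeR), and Nrarp, another Notch target gene, differed by -1.05 ± 0.52. Without CON replicate 2 the differences were -1.16 for Hes1 and -0.28 for Nrarp, and for Gucy1a1 and Prkg1 -0.56 and -0.82. The CCI values of Hes1 lay close together, and CON replicate 2 was the highest library. In smooth muscle Hes1 stood at 946, 1034, 436 and 427 CPM, in the same order of groups.

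Chemokine genes were higher in both CCI libraries in 8 of 13 cases and lower in none, with a median log2 difference of 1.69. Of all 3479 genes, 12.2% were higher in both and 15.4% lower. Ccl19, a lymphocyte attractant gene, stood at 62.4, 32.4, 132 and 209 CPM (1.79 ± 0.54, unadjusted p = 0.0167 by edgeR). Cxcl10, an interferon-inducible chemokine gene, stood at 349, 140.3, 491 and 2435 CPM (2.57 ± 0.88) and was found in 5, 2, 12 and 36 pericytes. Ccl11 stood at 243, 129, 314 and 1379 CPM (2.18 ± 0.80) and was found in 16, 5, 18 and 57 pericytes. For Cxcl10 and Ccl11, CCI replicate 2 was high and CCI replicate 1 lay closer to CON. Without CCI replicate 2 the differences were 1.46 for Ccl19, 1.03 for Cxcl10 and 0.78 for Ccl11, and the list's median was 0.50 over 14 genes. The other classes moved with that library. The list's summed level was 2874, 2082, 3434 and 11350 CPM in pericytes, 889.6, 1103, 1557 and 4024 CPM in smooth muscle, 3315, 3947, 3783 and 4992 CPM in endothelium, 4173, 5766, 6247 and 15461 CPM in fibroblasts and 572, 817, 615 and 2421 CPM in all other kept barcodes. Cxcl10 stood at 27.4, 86.2, 39.7 and 469 CPM in the other barcodes. CCI replicate 2 was thus the highest library in every class, and its part in the pericyte values was not tested.

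Cxcl1 stood at 717, 647, 780.0 and 2054 CPM (1.07 ± 0.54) and the NF-kB inhibitor gene Nfkbia at 362, 324, 471 and 978 CPM (1.09 ± 0.49), again with CCI replicate 2 highest. Outside the rule for named genes, and picked after their values were seen, Il6 stood at 74.8, 10.8, 63.8 and 1024 CPM and was found in 7, 1, 6 and 74 pericytes, and Ccl2 stood at 318, 53.9, 157 and 1379 CPM. Il6 was thus high in 1 of the 2 CCI libraries only. Without CCI replicate 2 its difference was 0.49 in place of 3.54 ± 1.42, and that of Ccl2 was -0.25 in place of 2.01 ± 1.17. Il6 stood at 71.9, 12.4, 70.3 and 1339.7 CPM when the 24 pericytes with other cells' markers were left out, with CCI replicate 2 again the highest. It stood at 40.8, 16.9, 61.3 and 389.9 CPM in fibroblasts and 3.78, 13.3, 43.5 and 191 CPM in smooth muscle, highest in the same library.

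CCI replicate 2 was also the highest library for metallothionein genes. Mt1 stood at 667, 1144, 912 and 5130.0 CPM and Mt2 at 24.9, 43.2, 88.3 and 386 CPM, with differences of 1.77 ± 0.83 and 2.89 ± 0.90 that were 0.08 and 1.47 without CCI replicate 2. Mt1 was highest in that library in the other classes too, at 1264, 655, 1462 and 2863 CPM in smooth muscle, 2913, 3441, 1857 and 6096 CPM in endothelium and 1059, 714, 527 and 2321 CPM in fibroblasts. Ednrb, an endothelin receptor gene also picked after its values were seen, stood at 68.6, 378, 206 and 1011 CPM (1.53 ± 1.02, and -0.00 without CCI replicate 2), and at 71.9, 149, 211 and 1019 CPM without the pericytes that held other cells' markers. Of 22 heat shock genes, 5 were lower in both CCI libraries and 3 higher (median -0.48). Of all 3479 genes, 15.4% were lower in both and 12.2% higher. Hspa1a differed by -1.01 ± 0.84, by -0.16 without CCI replicate 2, its lowest library, and by -2.76 without CCI replicate 1. Hspe1, a mitochondrial chaperonin gene, stood at 773, 917, 486 and 253 CPM (-1.20 ± 0.45), its partner Hspd1 differed by -1.14 ± 0.43 and Hsph1 by -1.47 ± 0.85. Hsph1 ran from -2.99 without CCI replicate 1 to -0.60 without CCI replicate 2, and without CON replicate 2 Hspd1 was -0.67 and Hsph1 -0.66. Hspe1 was -0.74 without CCI replicate 2.

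Immediate early genes were lower in both CCI libraries in 6 of 22 cases and higher in none (median -0.03). Of all 3479 genes, 15.4% were lower in both and 12.2% higher. Fos stood at 3691, 5643, 2561 and 2495 CPM (-0.87 ± 0.35), Jun differed by -0.96 ± 0.42, and Egr1 stood at 1471, 4197, 1319.5 and 909.7 CPM (-1.33 ± 0.56). CON replicate 2 was the highest library for Fos, Jun and Egr1, and without it the differences were -0.41, -0.44 and -0.28.

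Among the genes with the smallest p that met the rule for named genes, Fam126b stood at 81.1, 97.1, 14.7 and 10.4 CPM (-2.79 ± 0.61, unadjusted p = 0.00404 by edgeR), Klhl24 at 118, 216, 54.0 and 44.3 CPM (-1.73 ± 0.49) and Eapp at 131, 97.1, 24.5 and 41.7 CPM (-1.72 ± 0.51), all lower in both CCI libraries. Higher in both were Psmb8, an immunoproteasome subunit gene (49.9, 64.7, 191 and 159 CPM; 1.63 ± 0.44), Odc1, the rate-limiting enzyme gene of polyamine synthesis (56.1, 21.6, 152 and 172 CPM; 1.96 ± 0.55), and Crispld2 (24.9, 10.8, 83.4 and 227 CPM; 3.01 ± 0.79). Leaving out either CCI library kept the direction of these 6 genes, between -2.96 and -2.47 for Fam126b and between 2.14 and 3.57 for Crispld2. Interferon-response genes had 3 of 24 members higher in both CCI libraries and none lower (median 0.02), Psmb8 among them. Of all 3479 genes, 12.2% were higher in both CCI libraries and 15.4% lower.

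Matrix genes had 4 of 31 members higher and 6 lower in both CCI libraries, with a median of 0.07, and the basement membrane collagen gene Col4a1 differed by -0.69 ± 0.36. Contractile genes had 5 of 16 higher and none lower (median 0.38), and cytosolic ribosome genes 13 of 28 higher and none lower (median 0.23). Summed, the ribosome list stood at 62984, 51471, 67174 and 72018 CPM in endothelium and 34815, 29741, 35129 and 38200 CPM in all other kept barcodes. Both CCI libraries were the higher ones there and in fibroblasts, whereas the groups overlapped in smooth muscle. Hypoxia and glycolysis genes had 3 of 23 higher and 1 lower, and transport genes 3 of 10 lower. The shares over all 3479 genes, 12.2% higher and 15.4% lower, are the background for these counts.

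Some of the differences with the smallest p were in genes of other cells. Gal, the galanin gene that injured neurons express, stood at 18.7, 10.8, 574 and 211 CPM in pericytes and 142, 134, 2129.8 and 2176 CPM in all other kept barcodes, and the neuronal transcript Bc1 at 574, 97.1, 29.4 and 7.82 and 594, 154, 27.5 and 41.1 CPM (both picked after their values were seen). In both genes the groups stood in the same order in pericytes and in the other barcodes. Apod stood at 74.8, 21.6, 495 and 6152 CPM, with 2313 of 2360 UMIs in CCI replicate 2 in 5 barcodes, and at 65.4, 24.8, 86.5 and 179 CPM without the pericytes that held other cells' markers (6.02 ± 1.40 and 1.51). Injured neuron markers were higher in both CCI libraries in 4 of 7 cases and Schwann cell markers in 3 of 3, against 12.2% of all 3479 genes. Schwann cell markers together reached 524, 507, 5053 and 949 CPM, and injured neuron markers 1771, 1230, 3277 and 1752 CPM. Without the pericytes that held other cells' markers these sums were 523, 434, 546 and 599 CPM and 1784, 1351, 3395 and 2209 CPM.

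**Figure D4:**
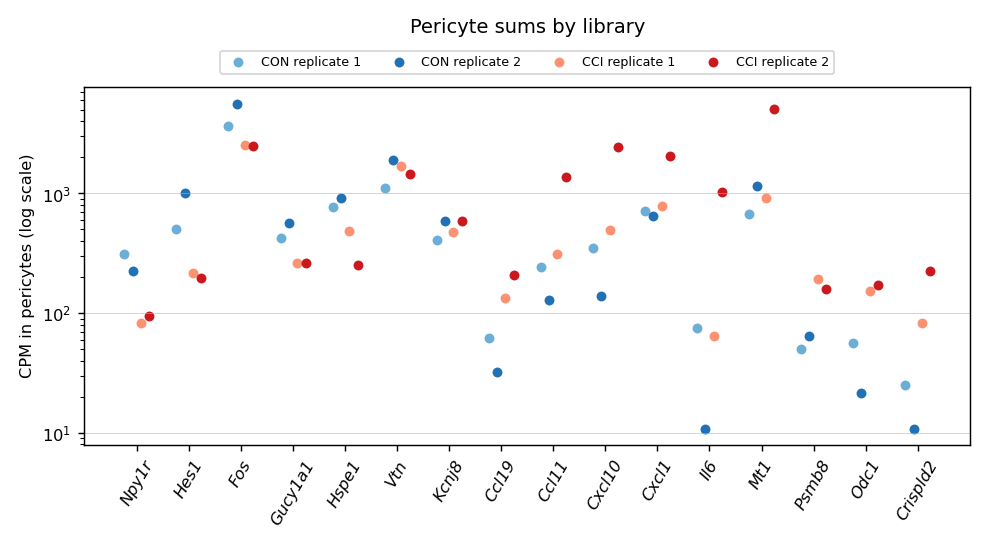
Summed level (CPM, log scale) in pericytes of the genes on the x axis, 1 point per library, CON in blue and CCI in red. Npy1r and Hes1 lie lower in both CCI libraries, and for Cxcl10, Ccl11, Il6 and Mt1 CCI replicate 2 stands above the other 3.

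Whether the CCI effect differed between pericytes and endothelial barcodes was tested with an interaction term in a fit blocked on library, and 9 of 11246 genes were called (0.08%), 8 higher (0.0711%) and 1 lower (0.00889%). Of these Apod, H2-Aa, H2-Ab1, H2-Eb1, Hbb-bs and Camp are genes of glia, fibroblasts, macrophages, red cells or neutrophils. Without the pericytes that held other cells' markers 6 genes were called, of which Mt2, Hbb-bs and Camp were also among the 9. The other 3 were Ednrb (2.86, adjusted p = 1.83e-05), Ccl2 (2.83, adjusted p = 0.000244) and Cebpd, the gene of a C/EBP transcription factor (1.70, adjusted p = 0.0293), all by edgeR. None of these 3 was among the 9. In the remaining pericytes Ednrb stood at 71.9, 149, 211 and 1019 CPM. Ccl2 stood at 333, 62.0, 173 and 1390 CPM and Cebpd at 823, 62.0, 649 and 2301 CPM. All 3 were highest in CCI replicate 2, and for Ccl2 and Cebpd CCI replicate 1 lay below CON replicate 1. The part of CCI replicate 2 in these calls was not tested. Only pericytes were left out in this setting, and no endothelial barcodes. Mt2 then stood at 26.1, 37.2, 81.1 and 416 CPM in pericytes, and endothelium held 672, 727, 451 and 1282 CPM of it. Its interaction was 2.50 on the log2 scale with all pericytes (edgeR adjusted p = 0.0445). Of 13 alternatives 7 kept that call, and it was lost with DESeq2, with at least 2 Rgs5 UMIs, after thinning and without CON replicate 1, CON replicate 2 or CCI replicate 2, with differences of 2.18 to 2.86 over all 13.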

How the data were processed

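Per the file headers and the labels, reads of 4 libraries were processed with Cell Ranger 5.0.1 on mm10, and the deposited matrices give whole-number UMI counts for 31253 genes in each barcode. By the methods the authors trimmed reads with fastp, their downsampling to equal reads per cell came after these matrices, and their own filter (more than 500 genes, under 20% mitochondrial UMIs) was applied here, after which 13 mitochondrial genes were removed. Levels are CPM, UMIs per 1000000 non-mitochondrial UMIs of a class in a library. Gene positions are those of RefSeq on GRCm38.p6, the assembly called mm10, and no sequence is printed.

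The sums over the barcodes of a class in a library were tested in edgeR 4.0.16 (R 4.3.3) with TMM factors, filterByExpr and the quasi-likelihood test, at a Benjamini-Hochberg adjusted p under 0.05. Comparisons of classes had the library as a block. For CCI against CON the p-values measure the spread between libraries. In the blocked fits they measure how much the class difference varies over libraries. Either spread may be technical. The median UMIs per pericyte were 1935 to 4493, and the tested sums ran from 92684 to 383625 UMIs. CON replicate 2 had the highest median and the smallest sum. Intervals and floors (3 UMIs) cover counting error only. Shares have exact binomial intervals (scipy 1.17.1).

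The members and gene lists were chosen with earlier results of these data known. Named genes were the rule's genes, up to 10 per direction with the greatest fold among called genes at 5 log2 CPM or more with 1 direction in all libraries, and up to 6 members of each list by p and by level. For CCI against CON, where nothing was called, they were the 10 smallest p among genes at that level whose groups did not overlap and which stood no lower than in other barcodes. Of the 72 genes with an unadjusted p under 0.05, 21 stood lower than in other barcodes. For the interaction they were the 8 smallest p. Further list members that were called are named without values, and levels of receptors, carriers and abundant transcripts describe the pericytes alone. Some genes that these rules name are not reported here. No doublet caller was run, and barcodes with other cells' markers were left out as an alternative. Further alternatives were DESeq2 1.42.0, tests without the low-count filter, upper-quartile scaling, stricter barcode filters (more than 1000 genes, under 10% mitochondrial UMIs), other Rgs5 minimums (2 and 5), thinning to 2000 UMIs, each library left out, the replicate number as a block, no library block and, added after seeing the data, no Notch3 minimum. The tests were tried on simulated data with 200 changed genes, of which edgeR found 60% at 2-fold and 85% at 4-fold against smooth muscle, 35% and 81% against endothelium and 0% and 18% for the interaction.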

Additional observations from a re-analysis of the deposited data

Results flagged for a closer look

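The effect of CCI differed between pericytes and endothelial barcodes, by the interaction term of edgeR's quasi-likelihood test, in 9 genes of 11246, of which 8 are given here. Values are log2 differences of the CCI effect, pericytes minus endothelium, and none of their causes was tested. Each call was lost under some of the alternatives, and edgeR or DESeq2 kept it in 12 of 13 for Apod, 9 of 13 for Hbb-bs, 7 of 13 for Mt2, 6 of 13 for H2-Ab1 and H2-Eb1, 6 of 12 for H2-Aa, 6 of 11 for Camp and 5 of 13 for Ndrg1. DESeq2 kept Apod alone of these 8, which was lost without the pericytes that held other cells' markers (1.14).

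For Mt2, a metallothionein gene, the difference was 2.50 (adjusted p = 0.0445 by edgeR). Pericytes held 24.9, 43.2, 88.3 and 386 CPM and endothelium 672, 727, 451 and 1282 CPM. The fold between the classes was thus smaller in both CCI libraries, while the gap in CPM was widest in CCI replicate 2. Ndrg1, a stress-responsive gene, differed by 2.60 (adjusted p = 0.0419 by edgeR), with 37.4, 32.4, 123 and 248 CPM in pericytes and 615, 493, 441 and 541 CPM in endothelium. Without the pericytes that held other cells' markers it stood at 32.7, 12.4, 21.6 and 87.4 CPM, and 22 of its 25 UMIs in CCI replicate 1 lay in 5 barcodes.

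Apod, a lipid carrier gene of fibroblasts and glia, differed by 5.08. Endothelium held 146, 11.8, 32.0 and 231 CPM of it. Apod stood at 65.4, 24.8, 86.5 and 179 CPM in the pericytes without other cells' markers. The MHC class II genes H2-Ab1, H2-Eb1 and H2-Aa, which macrophages express, differed by 4.78, 4.15 and 4.68. In CCI replicate 2 all 118 UMIs of H2-Ab1 and all 135 of H2-Aa lay in 2 barcodes, and 115 of 118 UMIs of H2-Eb1 in 5.

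Hbb-bs, a haemoglobin gene, differed by 3.36, with 112, 21.6, 108 and 123 CPM in pericytes and 8488, 1628, 1759.8 and 472 CPM in endothelium, the latter highest in CON replicate 1. Camp, a neutrophil granule gene, differed by -12.88, with 12.5, 10.8, 0 and 0 CPM in pericytes and 0.385, 0.576, 80.1 and 0.464 CPM in endothelium. That fitted value rests on 3 pericyte UMIs in CON and none in CCI and is no measure of size.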

How the results depend on the processing

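The directions of single genes were stable for the most part. Of their values under the alternatives, 1981 kept their direction and their side of the threshold, 80 lost and 26 gained the call, and 10 reversed. For CCI against CON in pericytes DESeq2 called 4 genes and no filter on low counts 65, and leaving out a library gave 0 to 49 (49 without CCI replicate 1 and 6 without CCI replicate 2), where the lone library of a group is assumed to vary like the others. Against smooth muscle, DESeq2 called 515 genes, thinning to 2000 UMIs 477 and no library block 321, with 498 to 877 on leaving out a library (498 without CCI replicate 1, 510 without CCI replicate 2). Against endothelium, thinning gave 1856 and leaving out a library 2625 to 3244. For the interaction, DESeq2 called 1 gene, no filter 25, at least 5 Rgs5 UMIs 17, at least 2 Rgs5 UMIs 2 and thinning 5, with 3 to 42 on leaving out a library (3 without CON replicate 2, 42 without CCI replicate 1 and 4 without CCI replicate 2). The mean share of pericytes in CON was 0.931% with the stricter barcode filter, 0.695% with at least 5 and 0.778% with at least 2 Rgs5 UMIs, 0.722% without other cells' markers, 0.846% with the rule applied to thinned counts and 1.01% with no Notch3 minimum, and single libraries ran from 0.735% to 0.765%. In CCI it was 1.01% with the stricter filter, 1.05% with thinned counts and 1.10% with no Notch3 minimum, and single libraries ran from 0.672% to 0.924%. Of the reversed values, Ndufa4l2 against smooth muscle was 0.0031 with at least 5 Rgs5 UMIs and 0.16 without other cells' markers, and -0.19 to 0.13 on leaving out a library. Without other cells' markers the interaction was -4.29 for H2-Aa, and on leaving out a library it was -5.41 to 11.85 for H2-Aa. Leaving out a library gave CCI differences of -0.10 to 0.63 for Vtn, -0.23 to 0.61 for Ndufa4l2, -0.25 to 4.05 for Ccl2 and -0.0038 to 3.34 for Ednrb. The causes were not tested. The main limits are 2 libraries a group, 20 pericytes in CON replicate 2, and classes drawn from the same barcodes by a few genes.

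The labels number the replicates 1 and 2 in both groups without saying that a number marks a shared batch, and the deviations of same-numbered libraries from their group means correlated at 0.35 over 3479 genes with 2 pairs, so the numbers were not taken as pairs. With the replicate block 0 genes were called for CCI against CON, the smallest adjusted p was 0.334 by edgeR and 112 genes had an unadjusted p under 0.05.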
